A study of Mus musculus with 4 samples.

Results

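The genes described are the protein-coding members of the UDP-glucuronosyltransferase (Ugt) and glutathione S-transferase (Gst) families in mouse liver. The members were taken by gene type and symbol, as protein-coding genes of the Ugt1, Ugt2 and Ugt3 families or of the Gst classes named alpha, kappa, mu, omega, pi, theta and zeta. The rule found 41 of the 35275 listed genes, 20 of them Ugt and 21 Gst. Liver RNA came from female mice of 4 groups, which were injected with vehicle or fibril (V or F) and kept sedentary or given interval training (IT), hence the names VS, VI, FS and FI. The mice of FS and FI had been injected with AApoAII amyloid fibrils when training began, those of VS and VI with vehicle, and the trained mice ran on a treadmill at alternating speeds. All 4 groups carried the amyloidogenic Apoa2c allele, so the vehicle groups were controls for the injection and not for the allele. The labels name the strain AKR/J with an Apoa2c congenic genotype, whereas the methods of the study describe R1.P1-Apoa2c mice on a SAMR1 background. Livers were taken at 26 weeks of age, after 16 weeks of training. RNA of 4 mice was pooled in each group and sequenced as 1 library, so that 16 mice gave 4 libraries and no value has a replicate error.

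Both families make toxic or fat-soluble molecules easier to excrete by attaching a polar group. The Ugt enzymes sit in the membrane of the endoplasmic reticulum and transfer glucuronic acid from UDP-glucuronic acid to bilirubin, steroids, bile acids, phenols and drugs. The Gst enzymes are mostly cytosolic, couple glutathione to reactive electrophiles such as lipid peroxidation products, and are named by class after a Greek letter. The liver is the main organ of both reactions. Transcription of many members is known to respond to NRF2, a transcription factor activated by oxidative stress, and to the xenobiotic receptors CAR, PXR and AhR.

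The 4 libraries held between 23442935 and 28814802 counted reads. Levels of a gene in the libraries are given as CPM, the counts of a library scaled to 1e+06 after TMM normalisation, and levels of different genes are compared as FPKM, which also divides by gene length. A count of 0 allows up to 3 counts, which is 0.127 CPM in VS and 0.123 in VI, against 0.102 in FS and 0.124 in FI. These limits, and all intervals given, are at 95% and cover counting error only. Albumin, the main secreted protein of hepatocytes, had between 119865 and 135778 CPM. The 6 skeletal muscle markers, which the liver should lack, summed to 58.1 CPM in VS and 6.57 in VI, against 0.61 in FS and 0.0827 in FI. All ratios to VS are therefore ratios to the library with the most muscle RNA. The ratios FI to FS and FI to VI do not use VS. Both vehicle libraries nevertheless held more muscle RNA than both fibril libraries, so FI to VI also compares unequal amounts. The part of this RNA in the results was not tested.

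The Ugt1a members are unlike ordinary neighbouring genes. On chromosome 1 (GRCm38, plus strand) all 9 have a first exon of their own, which codes for the part that binds the substrate, joined to the same downstream exons. The last 737 coding bases are the same in all 9 members, whereas the first coding bases differ. The first 60 coding bases of the 2 most abundant Ugt1a members and the last 60 before the stop codon, from GENCODE M21, show this.
Ugt1a1, first coding bases: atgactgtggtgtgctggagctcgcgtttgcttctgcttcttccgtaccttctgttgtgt
Ugt1a9, first coding bases: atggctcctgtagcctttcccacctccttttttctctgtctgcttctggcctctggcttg
All Ugt1a members, last coding bases: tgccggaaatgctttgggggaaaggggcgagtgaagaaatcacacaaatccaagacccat
A read in the shared exons cannot be assigned to one member. Of the 2224 bases listed as the length of Ugt1a1 (chr1:88211959-88218997), 385 lie in no other gene, and of the 2190 of Ugt1a9 (chr1:88070800-88218997), 879. How such reads were counted is not given in the sources used. In VS, Ugt1a2 held 0 reads and Ugt1a9 3026, so reads in the shared exons were not credited to every member. Mean FPKM over the libraries was 53.5 for Ugt1a9 and 9.88 for Ugt1a1 by the listed length, and would be 133 and 57.1 if only reads on bases of no other gene had been counted, a calculation added after the data had been seen.

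The upstream bases of Ugt1a members are shown because they hold the rarest motif found among the family's start sites. RefSeq start sites of GRCm38.p6 were matched for 37 of the 41 members, and not for Gsta4, Gstt2, Ugt1a6b and Ugt3a2. The 250 bases before each start were searched on both strands. The letters GTTAATNAT of a site for HNF1, a transcription factor of hepatocytes, occurred in 3 members and in 0.737% of all 32851 windows of this length. In the 110 bases before the start, all on the plus strand of chromosome 1, capitals mark these letters, which lie on the opposite strand and so appear as their reverse complement.
Ugt1a1, chr1:88211849-88211958: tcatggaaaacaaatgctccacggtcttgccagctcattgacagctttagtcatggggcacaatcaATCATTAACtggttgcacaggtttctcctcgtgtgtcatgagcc
Ugt1a9, chr1:88070669-88070778: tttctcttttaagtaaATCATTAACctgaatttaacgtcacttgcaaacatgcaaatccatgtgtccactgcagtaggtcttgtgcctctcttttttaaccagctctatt
Ugt1a10, chr1:88055301-88055410: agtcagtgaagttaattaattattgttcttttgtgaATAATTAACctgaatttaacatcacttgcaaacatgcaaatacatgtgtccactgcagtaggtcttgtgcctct
Ugt1a9 and Ugt1a1 were the 2 most abundant Ugt1a members, whereas Ugt1a10, whose window holds the same letters, had a mean of 0.207 FPKM. The coding sequences of Ugt1a10 and Ugt1a9 are 95.28% identical. The core of the antioxidant response element, TGACNNNGC, through which NRF2 acts, occurred in 3 members, Gsta3, Gstm5 and Gstm7, and in 10.2% of all windows. Gsta3 had the highest FPKM of the alpha class, and its 160 upstream bases on the plus strand show the letters in capitals.
Gsta3, chr1:21240425-21240584: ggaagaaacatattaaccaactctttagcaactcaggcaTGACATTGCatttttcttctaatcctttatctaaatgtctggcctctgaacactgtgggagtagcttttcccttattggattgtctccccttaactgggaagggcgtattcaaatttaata
The AhR core GCGTG was found in 6 members and 28.2% of windows, and the TATA box TATAAA in 5 members and 12.4% of windows. A repeat of AGTTCA after any 4 bases was found in no member and in 0.00913% of windows, and a repeat of AGGTCA after 1 base in no member and in 0.0335%. These matches describe letters in the windows and no binding.

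Of the 41 members, 31 reached 1 CPM in at least 1 library, of which 30 did so in all 4. Gsta1 passed only in VI and FS, where it was highest, with 2.01 and 1.42 CPM against 0.762 in VS and 0.992 in FI. The 10 members below 1 CPM in every library were Gsto2, Gstp2, Gstt4, Ugt1a2, Ugt1a7c, Ugt1a8, Ugt1a10, Ugt2a1, Ugt2b37 and Ugt2b38. Gstt4 had 1 read in FI and Ugt2a1 1 read in FS, with 0 in the other libraries. Several members have near-identical copies, between which reads may have been split, and their counts are uncertain. Coding sequences are 98.37% identical between Ugt1a6a and Ugt1a6b, 98.1% between Gstp1 and Gstp2, 97.61% between Gsta1 and Gsta2, 97.04% between Ugt2b38 and Ugt2b5 and 93.24% between Ugt3a1 and Ugt3a2. Exons of Gstm5, Gstt3, Gstz1 and Ugt2a1 overlap those of another gene.

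The most abundant Gst member was Gstm1 of the mu class, with a mean of 557 FPKM. It was followed by Gsta3 with 389 FPKM, Gstz1 with 378, Gstp1 with 235 and Gstt1 with 224. Gsta3 is the alpha enzyme known for conjugating aflatoxin in mice, and Gstz1 is the isomerase of tyrosine breakdown. Among the Ugt members the steroid- and drug-conjugating Ugt2b genes led, Ugt2b36 with 248 FPKM and Ugt2b5 with 174, followed by Ugt3a2 with 136, Ugt2b1 with 86.7, Ugt2a3 with 80.3 and Ugt2b34 with 65.3. Within the Ugt family the Ugt2b genes took between 63.7% and 67.8% of the summed FPKM and Ugt1a genes between 6.7% and 8.54%. If reads in shared exons were not counted, the Ugt1a share would be between 17.4% and 21.2% and the Ugt2b share between 54.9% and 58.6%, and Ugt1a9 would stand close to Ugt3a2. The order and shares of the Ugt genes therefore depend on the counting. Within the Gst family the alpha share was 24% in VS and 23% in VI, against 16% in FS and 20.1% in FI. The mu share was 27.1% in VS and 25% in VI, against 35.1% in FS and 28.6% in FI, and the pi share was 6.02% in VS and between 11% and 13.4% in the other libraries. The alpha class thus had its smallest share, and the mu class its largest, in FS.

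**Figure D1:**
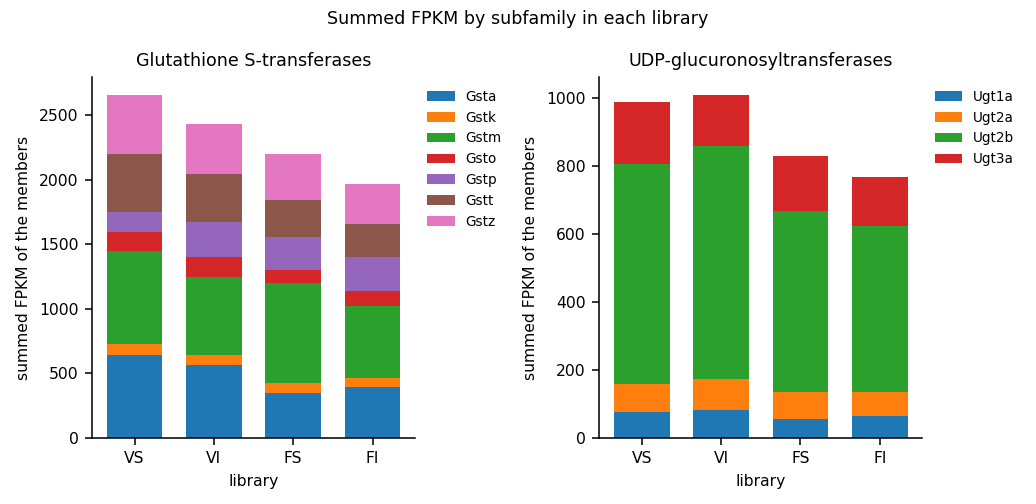
Stacked bars show the summed FPKM of the Gst subfamilies (left) and Ugt subfamilies (right) in each of the 4 pooled libraries. Summed Gst FPKM was 2658 in VS and 2434 in VI, against 2197 in FS and 1966 in FI, and the alpha layer was thinnest in FS.

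The comparison of fibril with vehicle libraries asks how amyloidosis was reflected in the conjugating enzymes. The study reported less liver amyloid in trained than in sedentary fibril-injected mice. FI to VI therefore contrasts a smaller amyloid load than FS to VS. Most members were lower in the fibril libraries, with Gsta2, Gsta4 and Gstt2 past the test of the additive model and the mu class of Gst as the main exception. The median log2 ratios of FS to VS and FI to VI were −0.79 and −0.89 in the alpha class, −0.49 and −0.39 in the theta class, −0.49 and −0.27 for Ugt1a and −0.30 and −0.50 for Ugt2b genes, but 0.33 and 0.01 in the mu class. Of the 31 members, 21 had a ratio of FS to VS below 0 on the log2 scale and 26 a ratio of FI to VI below 0, 67.7% and 83.9% against 48% and 48.7% of all 12180 genes with at least 1 CPM in 1 library. The median log2 ratio of members was −0.26 for FS to VS, against 0.02 for all genes, and −0.33 for FI to VI, against 0.01. Both ratios were below 0 for 20 members, or 64.5%, and for 31.5% of all genes. These are 2 ratios without a common library. FI to VI does not contain VS, but the muscle markers also differed in it, with 6.57 CPM in VI and 0.0827 in FI. Both were above 0 for 4 members, Gstm3, Gstm4, Gstm7 and Ugt1a5, or 12.9% against 34.8% of all genes. In whole liver, fewer cells of a type and less RNA per cell cannot be told apart.

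With 1 library per group the ratios have no test. An additive model of fibril injection and IT was fitted with edgeR's quasi-likelihood method to 11760 genes. It has 1 degree of freedom left per gene, the departure from additivity, which it counts as noise. It takes the error of a gene from this departure and from a trend over all genes. For fibril injection it called 3 of the 31 members lower and 0 higher at a Benjamini-Hochberg adjusted p below 0.05, against 2.17% of genes called lower and 2.81% called higher. At an unadjusted p below 0.05 it had 16 members lower, against 10.5% of genes, and 2 higher, against 10.8%. In either direction DESeq2 called 5 members, against 4.05% of genes, and limma-voom 7, against 6.0%. More than 2-fold lower in FS than VS were Gsta2 and Gstt2, against 2.2% of all genes, and more than 2-fold higher was Gstm3, against 3.6%. From VI to FI, Gsta1 and Gsta2 were more than 2-fold lower, against 1.95% of all genes, and 0 members were more than 2-fold higher, against 2.59%. Gsta1 reached 1 CPM only in VI and FS, so its ratio follows in part from the filter on low counts.

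**Figure D2:**
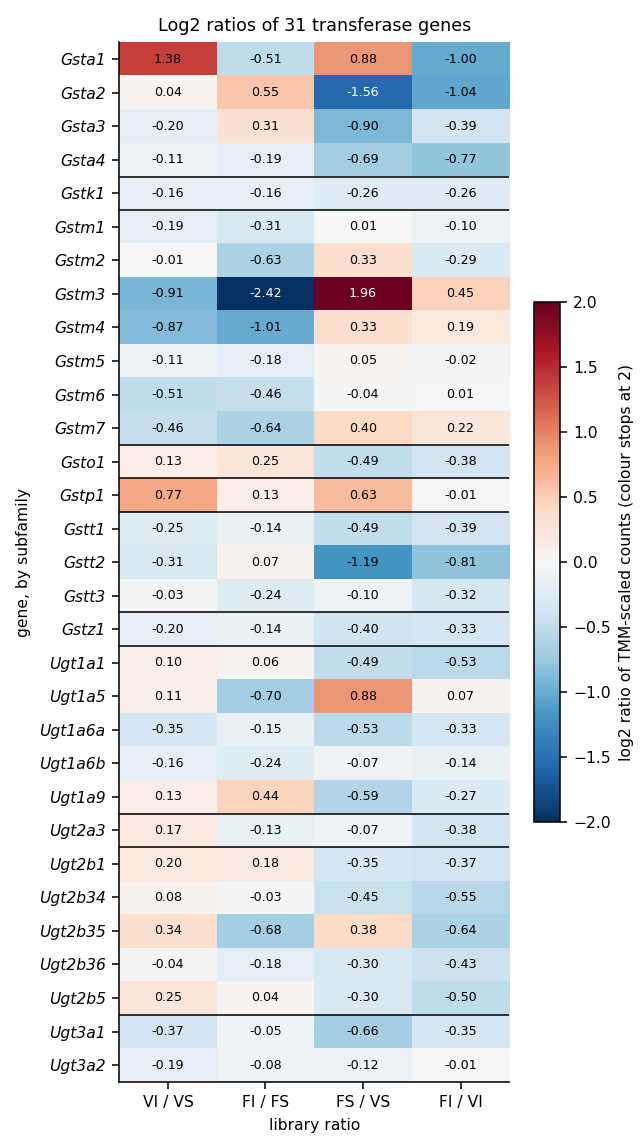
The heat map gives the log2 ratio of scaled counts of the 31 members (rows, by subfamily) for the 4 library ratios (columns), blue for lower and red for higher. The columns FS / VS and FI / VI are mostly blue outside the Gstm rows, and the Gstm rows are blue in VI / VS and FI / FS.

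The alpha class was lower in both fibril libraries for Gsta2, Gsta3 and Gsta4. Gsta2 (chr9:78331018-78355788, minus strand), known as an inducible enzyme that reduces lipid hydroperoxides, had 30.5 CPM in VS and 31.3 in VI, against 10.4 in FS and 15.2 in FI. Both fibril libraries lay below both vehicle libraries. The log2 ratio was −1.56 (interval −1.75 to −1.36) for FS to VS and −1.04 (−1.23 to −0.86) for FI to VI. In the additive edgeR fit Gsta2 fell by 1.3 ± 0.16 (SE) with fibrils on the log2 scale, with an adjusted p of 0.00577. Its near copy Gsta1 held only 18, 49, 42 and 24 reads in VS, VI, FS and FI.

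Gsta4 (chr9:78191966-78209348, plus strand), the enzyme for the lipid peroxidation product 4-hydroxynonenal, had 87.4 CPM in VS and 81.1 in VI, against 54.1 in FS and 47.5 in FI. Again both fibril libraries were below both vehicle libraries, with log2 ratios of −0.69 and −0.77. Gsta4 fell by 0.74 ± 0.11 (SE) in the edgeR fit, with an adjusted p of 0.0101. Gsta3 (chr1:21240589-21265661, plus strand) had 1414 CPM in VS and 1233 in VI, against 760 in FS and 943 in FI. Both fibril libraries were below both vehicle libraries, and FI was nearer to them than FS. The log2 ratio was −0.90 (−0.92 to −0.87) for FS to VS and −0.39 (−0.41 to −0.36) for FI to VI, and the additive value of −0.65 ± 0.16 (SE) did not pass in edgeR, with an adjusted p of 0.0597.

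In the theta class, Gstt2 (chr10:75831845-75834881, minus strand) had 199 CPM in VS and 160 in VI, against 87.0 in FS and 91.4 in FI. The fibril libraries were at about the same level and both below the vehicle libraries. Gstt2 fell by 1.01 ± 0.13 (SE) with fibrils, with an adjusted p of 0.00622 in edgeR. Gstt1, known for conjugating small halogenated solvents, had 309 CPM in VS and 260 in VI, against 219 in FS and 199 in FI, with log2 ratios of −0.49 and −0.39 and an adjusted p of 0.0727. Gstt3 was between 32.0 and 40.7 CPM in all libraries, with log2 ratios of −0.10 and −0.32 and an adjusted p of 0.339.

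The single members of the zeta, kappa and omega classes that were expressed were also lower in both fibril libraries. Gstz1 (chr12:87147707-87164721, plus strand) had 757 CPM in VS and 658 in VI, against 575 in FS and 524 in FI, and an adjusted p of 0.143 in edgeR. Gsto1, which reduces dehydroascorbate, had 166 CPM in VS and 182 in VI, against 118 in FS and 141 in FI, and an adjusted p of 0.0677. Gstk1, an enzyme of mitochondria and peroxisomes, ranged from 61.9 to 83.0 CPM, with a log2 ratio of −0.26 in both comparisons. None of these 3 passed the test in the additive fit.

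The Ugt genes were mostly lower with fibrils, by less than the Gsta genes. Of the 13 expressed Ugt members, 11 were lower in FS than VS and 12 in FI than VI. These were 84.6% and 92.3%, against 48% and 48.7% of all genes. The medians of the Ugt members were −0.30 and −0.37, and 0 of them passed the adjusted edgeR test. Ugt1a1, the enzyme that conjugates bilirubin, had 24.9 CPM in VS and 26.7 in VI, against 17.8 in FS and 18.5 in FI, with log2 ratios of −0.49 (−0.66 to −0.31) and −0.53 (−0.71 to −0.36). Ugt1a9, an enzyme of phenols and drugs, had 128 CPM in VS and 140 in VI, against 85.4 in FS and 116 in FI. Both had their 2 lowest levels in the fibril libraries. Their adjusted p-values in edgeR were 0.0602 for Ugt1a1 and 0.0876 for Ugt1a9. The phenol-conjugating Ugt1a6a ranged from 5.75 CPM in FI to 9.23 in VS, and Ugt1a6b from 4.42 to 5.46. Ugt1a5 stood apart, with 6.27 CPM in FS and between 3.39 and 3.84 in the other libraries.

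In the Ugt2b cluster of chromosome 5, Ugt2b36 (chr5:87065927-87092555, minus strand) had 535 CPM in VS and 519 in VI, against 435 in FS and 385 in FI. Ugt2b5 (chr5:87124960-87140318, minus strand) had 337 CPM in VS and 400 in VI, against 274 in FS and 282 in FI. Ugt2b1 and Ugt2b34 also had both fibril libraries below both vehicle libraries. Ugt2b34 had 321 CPM in VS and 338 in VI, against 235 in FS and 231 in FI, and its additive value of −0.51 ± 0.12 (SE) narrowly missed the threshold, with an adjusted p of 0.0514 in edgeR. Ugt2a3 ranged from 149 CPM in FI to 194 in VI. Of the Ugt3a genes, whose products use other UDP sugars, Ugt3a1 had 67.5 CPM in VS and 52.4 in VI, against 42.6 in FS and 41.2 in FI, with an adjusted p of 0.054. Its neighbour Ugt3a2 stayed between 302 and 347 CPM.

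**Figure D3:**
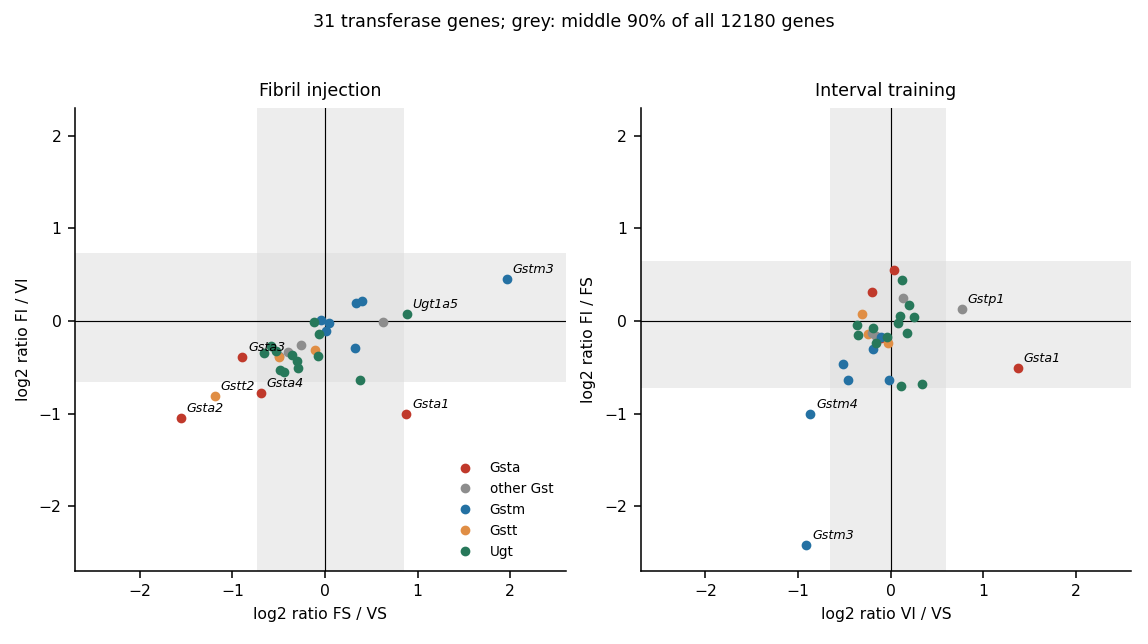
Each point is 1 of the 31 members. The left panel plots the log2 ratio FS / VS against FI / VI, the right panel VI / VS against FI / FS, and the grey bands span the middle 90% of all 12180 genes on each axis. Gsta2 and Gstt2 lie at the lower left of the left panel, and Gstm3 and Gstm4 at the lower left of the right panel.

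The comparison of trained with sedentary libraries asks how IT was reflected in the same enzymes, without and with amyloidosis. In FI to FS, training and the smaller amyloid load reported for trained mice cannot be told apart. The mu class of Gst stood out, since all 7 Gstm members were lower in VI than VS and all 7 lower in FI than FS. Of all genes, 49.3% and 49.8% were lower. The median log2 ratio of the 7 was −0.46 for VI to VS and −0.63 for FI to FS, against medians of 0.00 and 0.00 over all genes. Over all 31 members, 19 were lower in VI than VS and 22 in FI than FS. These were 61.3% and 71%, against 49.3% and 49.8% of all genes, and the medians of members were −0.11 and −0.15. Both ratios were below 0 for 17 members, or 54.8%, against 29.8% of all genes, and both above 0 for 7 members, or 22.6%, against 30.7%. More than 2-fold lower in FI than FS were Gstm3 and Gstm4, against 2.53% of all genes, Gstm4 so narrowly that it lost the 2-fold mark with DESeq2 size factors and with FPKM and a pseudocount of 1. In this comparison 0 members were more than 2-fold higher, against 1.75%. From VS to VI, 0 members were more than 2-fold lower, against 1.9% of all genes, and Gsta1 alone was more than 2-fold higher, against 1.54%. Gsta1 reached 1 CPM only in VI and FS, so its ratio follows in part from the filter. For IT the additive edgeR fit called 1 of the 31 members lower, or 3.2%, against 0.714% of genes, and 0 higher, against 0.765%. At an unadjusted p below 0.05 it had 4 members lower, or 12.9%, against 7.45% of genes. It had 2 higher, or 6.5%, against 7.23%. In either direction DESeq2 called 1 member, or 3.3%, against 1.65% of genes, and limma-voom 2, or 6.5%, against 2.06%. These shares rest on few members, and their differences from those over all genes were not tested. The calls of both factors depended on the model. With each factor fitted alone edgeR called 0 members for fibrils and 0 for IT, against 0.068% and 0.0% of genes. With all genes of at least 1 count it called 12 and 5 members, against 7.62% and 3.71% of genes.

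The member called was Gstm4 (chr3:108040408-108044894, minus strand). It had 23 CPM in VS and 29 in FS, against 12.6 in VI and 14.4 in FI. Both trained libraries were below both sedentary libraries. The log2 ratio was −0.87 (−1.07 to −0.66) for VI to VS and −1.01 (−1.19 to −0.83) for FI to FS, and the ratios differed by −0.14 (−0.42 to 0.13). Gstm4 fell by 0.94 ± 0.14 (SE) with IT in edgeR, with an adjusted p of 0.0184.

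Gstm3 (chr3:107963696-107969283, minus strand) had the widest range relative to its level among the mu genes, with 8.34 CPM in VS and 32.6 in FS, against 4.43 in VI and 6.08 in FI. It was high in FS alone and lower in each trained library than in its sedentary partner. FS was 3.9-fold above VS and 5.35-fold above FI. The log2 ratio was −0.91 (−1.26 to −0.57) for VI to VS and −2.42 (−2.68 to −2.17) for FI to FS, a difference of −1.51 (−1.94 to −1.08). That difference is beyond counting error, but with 1 library per group it was not tested against the variation between animals. In the additive edgeR fit, which assumes no such difference, the IT value was −1.74 ± 0.35 (SE) with an adjusted p of 0.0935 and the fibril value 1.31 ± 0.34 (SE) with an adjusted p of 0.0951.

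The coding sequence of Gstm3 shares its longest identical stretch within the mu class, 125 bases, with Gstm6, at 84.6% identity. It is 89.45% identical to that of the far more abundant Gstm1 (chr3:108012255-108017973, minus strand), with a longest identical stretch of 112 bases. The first 60 coding bases of both are shown to make visible how far their reads can be told apart, with the 9 bases that differ in capitals.
Gstm3, first coding bases: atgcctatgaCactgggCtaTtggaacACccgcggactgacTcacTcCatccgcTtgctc
Gstm1, first coding bases: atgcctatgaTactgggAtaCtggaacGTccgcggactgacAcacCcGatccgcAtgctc
Gstm1 itself had 777 CPM in VS and 781 in FS, against 679 in VI and 632 in FI. The trained libraries were again the 2 lowest, and VS and FS were nearly equal, unlike for Gstm3. The log2 ratio of FS to VS was 0.01 (−0.02 to 0.03) for Gstm1 and 1.96 (1.74 to 2.19) for Gstm3.

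Gstm6 and Gstm7 also had both trained libraries below both sedentary libraries, with smaller ratios than Gstm4. Gstm6 had 40.7 CPM in VS and 39.5 in FS, against 28.5 in VI and 28.7 in FI, and Gstm7 had 33.9 CPM in VS and 44.6 in FS, against 24.6 in VI and 28.7 in FI. Their IT values in the additive edgeR fit were −0.49 ± 0.11 (SE) with an adjusted p of 0.0995 and −0.55 ± 0.12 (SE) with an adjusted p of 0.0734. Gstm2 was 25.8 CPM in VS and 32.4 in FS, against 25.5 in VI and 20.9 in FI, so that the trained library was the lower one of the fibril pair and about equal in the vehicle pair. Gstm5 lay between 9.05 and 10.2 CPM, and its ratios were within counting error.

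Gstp1 (chr19:4035407-4037921, minus strand), the pi-class enzyme known to be higher in male than in female mouse liver, had 120 CPM in VS and 185 in FS, against 204 in VI and 203 in FI. It was low in VS alone, the library with the most muscle RNA. The log2 ratio was 0.77 (0.70 to 0.84) for VI to VS and 0.13 (0.08 to 0.19) for FI to FS, and without VS the levels spanned 185 to 204 CPM. The IT value of 0.45 ± 0.16 (SE) did not pass in edgeR, with an adjusted p of 0.263. Its near copy Gstp2 held 5, 4, 17 and 15 reads in VS, VI, FS and FI.

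**Figure D4:**
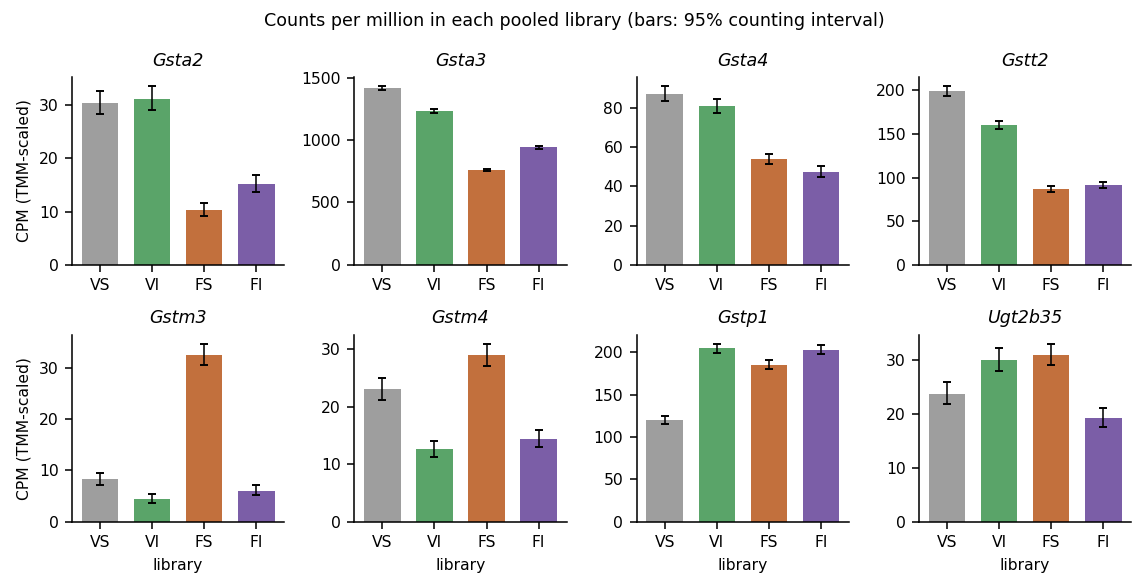
Bars give CPM in each pooled library for 8 members on linear axes from 0, with 95% counting intervals. Gsta2, Gsta4 and Gstt2 are low in FS and FI, Gstm4 is low in VI and FI, Gstm3 is high in FS alone, Gstp1 is low in VS alone and Ugt2b35 is highest in VI and FS.

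Genes that supply or use the same substrates, and those of their regulators, were counted from lists of general knowledge. For FS to VS and FI to VI, median log2 ratios were 0.11 and −0.15 for UDP-glucuronic acid supply and turnover, 0.03 and −0.23 for glutathione synthesis and recycling, 0.03 and −0.20 for NRF2 targets, −0.29 and −0.07 for regulators and −0.23 and −0.33 for transporters of conjugates. In these 5 lists the edgeR fit, DESeq2 and limma-voom called 0 genes for IT, and an unadjusted p below 0.05 in edgeR was reached by 0 of 8, 1 of 11, 4 of 12, 5 of 14 and 0 of 10 tested genes, against 14.7% of all genes. With fibrils, the additive edgeR fit called 2.81% of all genes higher and 2.17% lower. Of 8 genes of UDP-glucuronic acid supply and turnover, it called 1 higher with fibrils and 0 lower. This was Slc35b1, a nucleotide transporter of the endoplasmic reticulum, with 19.9 CPM in VS and 21 in VI, against 52.1 in FS and 36.2 in FI (adjusted p 0.0108). Ugdh, which makes UDP-glucuronic acid, stayed between 74 and 90.9 CPM and was not called, with an adjusted p of 0.716 for fibrils in edgeR. Of 11 tested genes of glutathione synthesis and recycling, 2 were called lower with fibrils and 2 higher. The lower genes were Gclc and Gclm, the subunits of the rate-limiting enzyme of glutathione synthesis. Gclc had 351 CPM in VS and 348 in VI, against 197 in FS and 235 in FI (adjusted p 0.0201), and Gclm 289, 272, 215 and 172 CPM in the same order (adjusted p 0.0427). The higher genes were Cbs, which feeds cysteine synthesis, with an adjusted p of 0.0323, and Chac1, which breaks glutathione down, with an adjusted p of 0.0216.

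Among 12 tested NRF2 target genes outside the families, edgeR called 4 lower with fibrils and 0 higher. They were Gclc and Gclm again, Ephx1, an epoxide hydrolase, and Osgin1. Other NRF2 targets did not pass, with Hmox1 between 28.2 and 31.4 CPM and Nqo1 between 2.03 and 4.34 CPM. Of these others, Srxn1 (log2 ratios 0.54 and 0.33), Pgd (0.34 and 0.14), Taldo1, Hmox1, Txnrd1 and G6pdx had both fibril ratios above 0. Me1 (−0.21 and −0.46) had both below 0, and Nqo1 differed in direction. Of 14 regulators of conjugating enzymes, 1 was called lower with fibrils and 0 higher. It was Nr1i3, which encodes CAR, with 217 CPM in VS and 169 in VI, against 99.2 in FS and 88.8 in FI (adjusted p 0.00441). Nfe2l2, which encodes NRF2, was between 38.8 and 56.1 CPM, with an adjusted p of 0.35.

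Of 6 tested targets of AhR, CAR and PXR, edgeR called 1 higher and 1 lower with fibrils and 1 higher with IT. Cyp2b10, the classical CAR target, was the higher gene for both, with 11.2 CPM in VS and 31.5 in VI, against 41.2 in FS and 116 in FI. Cyp1a2 was the lower gene, with 350 CPM in VS and 293 in VI, against 158 in FS and 180 in FI. The mRNA of CAR and that of its target Cyp2b10 thus had opposite orders between vehicle and fibril libraries. Among the tested genes not called with fibrils, Cyp2b9 was lower in both comparisons (log2 ratios −0.79 and −0.39) and Tiparp higher in both (0.76 and 0.53). Cyp3a11 and Por differed in direction between the 2 comparisons. Of 10 transporters of conjugates, 1 was called lower with fibrils, the efflux pump Abcb1a, with 21.2, 24.3, 10.5 and 8.43 CPM in VS, VI, FS and FI. Of 3 tested membrane-bound and other glutathione transferases, 0 were called for either factor by edgeR, DESeq2 or limma-voom, and 0 had an unadjusted p below 0.05 in edgeR. The most abundant of them, Mgst1, had log2 ratios of −0.32 and −0.29 with fibrils.

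Several of the conjugating enzymes are known to be higher near the central vein. Of 10 genes typical of pericentral hepatocytes, edgeR called 4 lower with fibrils (Cyp1a2, Lect2, Axin2 and Tbx3), against 2.17% of all genes, and 0 higher. The other 6 were not called, among them Glul, with log2 ratios of −0.24 and −0.15, and Oat, with −0.05 and 0.59. Cyp2e1 made up most of their summed level and was not called, with 11182 CPM in VS and 9742 in VI, against 6011 in FS and 8798 in FI. Without it the other 9 summed to 2355 CPM in VS and 2074 in VI, against 1836 in FS and 1988 in FI. The median log2 ratio of the 10 was −0.65 for FS to VS and −0.20 for FI to VI. Of 9 genes typical of periportal hepatocytes, 1 was called higher with fibrils and with IT, Sds. Their sum was lowest in VS at 9490 CPM and highest in FI at 15352, of which Pck1 gave 3810 and 5252. The list was mixed with fibrils. Cyp2f2 (log2 ratios −0.50 and −0.35), Hsd17b13 (−0.18 and −0.25) and Gls2 (−0.09 and −0.01) were lower in both comparisons. Hal, Sds, Pck1, Arg1, Cps1 and Ass1 were higher in both. Kupffer cell markers summed to 174 CPM in VS and 219 in VI, against 270 in FS and 259 in FI, with Marco called higher with fibrils. The 6 hepatocyte markers summed to between 147524 and 163733 CPM. The part of liver zones and cell types in the levels of the transferases was not tested.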

How the data were processed

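Liver RNA pools of 4 mice were sequenced, 1 library per group. The authors deposited unnormalised read counts per gene, with fastp 0.23.2, STAR 2.5, HTSeq 0.6.1 and mm10 named in the submitters' processing notes, and FPKM values, which equalled count per listed length and library total. The families, the rule that lists their members and the gene lists were chosen with earlier results of these data known.

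Log2 ratios of TMM-scaled counts used a prior of 0.5 counts, genes with at least 1 CPM in 1 library, and exact conditional binomial (Clopper-Pearson) intervals. The additive model (3 coefficients) used edgeR 4.0.16 (robust quasi-likelihood, Benjamini-Hochberg adjustment, genes with at least 1 CPM in 2 libraries). Its p-values test each factor against an error drawn from the departure of the 4 pools from additivity and from a trend over all genes. DESeq2 1.42.0, limma 3.58.1, R 4.3.3, Python 3.11.15 and matplotlib 3.10.9 were also used. VI to VS and FS to VS share VS, and FI to FS and FI to VI share FI.

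Named were the 3 members of highest FPKM per subfamily, those past 2-fold with at least 5 CPM, and those called. The other 14 were chosen after their values were seen. Coordinates are those listed with the counts. Alternatives covered scaling, filters, thresholds, FPKM pseudocounts and other models.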

Additional observations from a re-analysis of the deposited data

Results flagged for a closer look

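In 5 members the log2 ratio of one factor had opposite signs in the other factor's 2 settings, with both counting intervals clear of 0, and with 1 library per group none of these differences was tested. Gsta3 was lower with IT in the vehicle pair (−0.20) and higher in the fibril pair (0.31), a difference of 0.508. Ugt2a3 was higher with IT in the vehicle pair (0.17) and lower in the fibril pair (−0.13), a difference of −0.305. Ugt2b35 had 23.8 CPM in VS, 30.0 in VI and 31 in FS but 19.3 in FI, so that each factor alone went with a higher level and both together with the lowest. Its difference was −1.02 for IT between fibril and vehicle libraries, and −1.02 for fibrils between trained and sedentary libraries, the same contrast of the 4 libraries. For Gstm2 the fibril ratio was 0.33 in sedentary and −0.29 in trained libraries, a difference of −0.62. For Gsta1, which held at most 49 reads in a library and reached 1 CPM only in VI and FS, it was 0.88 and −1.0, a difference of −1.88.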

How the results depend on the processing

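No paired analysis was possible because each group is 1 library and the groups share no more than 1 replicate number. For fibrils, the number of members called was 3, and was 5 with DESeq2, 7 with limma-voom, 7 with DESeq2 size factors in edgeR, 12 with all genes of at least 1 count and 0 with each factor alone. For IT it was 1, and was 2 without robust estimation, 2 with limma-voom, 5 with all genes of at least 1 count and 0 with each factor alone. No share over all genes was taken for the fits with DESeq2 size factors in edgeR or without robust estimation. The adjusted p of Gsta2 ranged from 9.41e-16 to 0.0736 over 8 alternatives, that of Gstt2 from 6.7e-13 to 0.0731, that of Gsta4 from 3.51e-07 to 0.0907 and that of Gstm4 from 9.76e-08 to 0.46, and each was called in 7 of the 8. Gstm3 was called for IT and for fibrils in 3 alternatives each. TMM factors over all genes, added after seeing the data, left 3 and 1 members called.

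Members past 2-fold were 1 for VI to VS, 2 for FI to FS, 3 for FS to VS and 2 for FI to VI. Without a filter on low counts they were 6, 6, 8 and 5, and at 1.5-fold 4, 6, 10 and 5. With at least 5 CPM they were 0 for VI to VS and 1 for FI to VI. With FPKM and a pseudocount of 1 they were 0 for VI to VS, 1 for FI to FS and 1 for FI to VI, with a pseudocount of 0.1 they were 1 for FI to VI, and with DESeq2 size factors 1 for FI to FS. For these counts, shares over all genes were taken only in the main setting, so the others cannot be set against them. The median of members for FI to FS was −0.23 with total counts, and the other 15 alternative medians stayed within counting error. Of 432 alternative ratios of named members, 384 stayed within counting error and 0 of those past 2-fold changed direction. Depth limits the members below 1 CPM and Gsta1, Gstp2 and Ugt1a5.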
